A study of Mus musculus with 36 samples.

Results

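The myostatin, activin and BMP signalling genes described here are 10 genes of the TGF-beta superfamily pathways that act on muscle size: the ligand genes Mstn, Gdf11, Inhba and Inhbb, the ligand-trap genes Fst and Fstl3, the receptor gene Acvr2b, and the BMP target genes Id1, Id2 and Id3. They were taken by symbol from the deposited table, with the reads of all transcripts of a symbol summed, and all 10 were found among 21156 genes and were among the 15031 that passed the filter on low counts. RNA-seq was made from the soleus, a slow postural hind limb muscle, of male C57BL/6J mice of 2 ages, young (6 months) and old (22 to 24 months). At each age there were control mice, mice whose hind limbs had been unloaded for 10 days, and mice unloaded for 10 days and then reloaded for 3 days. The groups held 9, 4 and 4 young libraries and 9, 6 and 4 old libraries, 36 in all, and no group carried a transgene or a drug. The labels mark each library as a separate mouse.

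Ligands of this superfamily bind a type II receptor, which then activates a type I receptor and, through it, Smad proteins. Myostatin, GDF11 and the activins act through the activin type II receptors and Smad2 and Smad3, and in skeletal muscle myostatin and activin A limit fibre growth. BMPs use Smad1, Smad5 and Smad8, raise the Id genes and favour muscle mass, and follistatin and follistatin-like 3 bind activins and myostatin outside the cell and keep them from their receptors.

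Library totals ran from 32.0 to 37.9 M reads assigned to genes. Between 4 and 9 libraries stood behind each group mean, and the lowest member count in any library was 15 reads, for Mstn. The 10 skeletal muscle fibre markers summed to between 61100 and 90700 CPM (counts per M reads of the library after TMM scaling) in every library, so the libraries carried the labelled tissue. Some libraries stood apart. There were 6 that held more than 20 CPM of the liver gene Alb, namely old reloading 2 and 4, young reloading 1 and 2, young unloading 2 and old unloading 6, and the summed liver markers reached 2580 CPM in old reloading 2. Old controls 1 to 6 held between 129 and 624 CPM of 7 denervated-fibre markers, against 85.1 to 99.5 CPM in old controls 7 to 9. Member results that lost their call without the Alb libraries, or with controls 1 to 6 alone, are given with those values.

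The promoters of 4 members are shown, chosen among those in the promoter table: Inhba, Fstl3 and Acvr2b because each changed with load at both ages, and Mstn because it is the muscle ligand that names the pathway. Each run is the 250 bases before the annotated start of the gene, 5′ to 3′ on the gene's strand, from RefSeq on GRCm38.p6. Of the 10 members, 8 matched the promoter table, all but Id1 and Fst. Capitals mark any match, on either strand, to the GC box GGGCGG, the E-box CANNTG, the TATA box TATAAA, the Smad-binding element CAGAC or the AP-1 motif TGANTCA.
Mstn, chr1:53061390-53061639, plus strand: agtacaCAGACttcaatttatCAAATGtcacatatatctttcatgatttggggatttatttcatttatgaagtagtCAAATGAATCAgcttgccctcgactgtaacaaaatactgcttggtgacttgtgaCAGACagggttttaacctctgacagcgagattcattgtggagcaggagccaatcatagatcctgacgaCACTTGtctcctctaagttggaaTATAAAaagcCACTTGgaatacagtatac
Inhba, chr13:16011601-16011850, plus strand: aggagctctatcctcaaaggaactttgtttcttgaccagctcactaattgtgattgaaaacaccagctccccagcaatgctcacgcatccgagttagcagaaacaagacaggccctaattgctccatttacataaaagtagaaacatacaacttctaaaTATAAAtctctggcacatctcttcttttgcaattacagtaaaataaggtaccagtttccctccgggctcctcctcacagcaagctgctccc
Fstl3, chr10:79777024-79777273, plus strand: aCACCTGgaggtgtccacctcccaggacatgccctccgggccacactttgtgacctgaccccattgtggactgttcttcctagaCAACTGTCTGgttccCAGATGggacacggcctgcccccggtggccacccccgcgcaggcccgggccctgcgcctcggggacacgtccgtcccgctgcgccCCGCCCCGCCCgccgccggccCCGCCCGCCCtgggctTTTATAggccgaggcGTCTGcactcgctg
Acvr2b, chr9:119401928-119402177, plus strand: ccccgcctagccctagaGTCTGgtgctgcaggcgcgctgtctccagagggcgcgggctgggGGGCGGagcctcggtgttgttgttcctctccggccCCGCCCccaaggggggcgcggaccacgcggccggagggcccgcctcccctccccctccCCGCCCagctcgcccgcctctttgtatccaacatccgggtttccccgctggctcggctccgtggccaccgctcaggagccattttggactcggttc
The Mstn run held 4 E-boxes, 1 TATA box, 2 Smad-binding elements and 1 AP-1 motif, with 1 overlap between motifs, and its TATA box began 29 bases before the start. The Inhba run held a single match, a TATA box 91 bases before the start. The Fstl3 run held 4 GC boxes, 3 E-boxes, 1 TATA box and 2 Smad-binding elements, with 3 overlapping pairs. The Acvr2b run held 3 GC boxes and 1 Smad-binding element, none overlapping. Over 32851 promoters of the same length, 32.7% held a GC box, 66.2% an E-box, 12.4% a TATA box, 42.2% a Smad-binding element and 6.75% an AP-1 motif. GC content was 38.4% for Mstn, 43.2% for Inhba, 71.2% for Fstl3 and 72.8% for Acvr2b, against a median of 52.4% over all promoters. These matches describe letters in the window and are no evidence of binding.

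On the per-length scale of the deposited RPKM values, summed over transcripts and averaged over all 36 libraries, Id3, Id1, Fst, Acvr2b and Id2 lay above 2 RPKM and the 4 ligand genes and Fstl3 below 0.5 RPKM. Id3 was highest at 11.9 RPKM, followed by Id1 at 6.76 RPKM, Fst at 4.11 RPKM, Acvr2b at 2.47 RPKM and Id2 at 2.03 RPKM. This order was not the same in every group: mean Fst exceeded Id1 in old unloaded (5.65 against 5.02 RPKM) and old reloaded soleus (5.31 against 3.01 RPKM), and Id2 exceeded Acvr2b in young reloaded (2.19 against 1.98 RPKM), old control (2.17 against 2.11 RPKM) and old reloaded soleus (2.13 against 1.36 RPKM). The remaining 5 lay close together, from Fstl3 at 0.454 RPKM through Mstn at 0.42, Inhba at 0.373 and Gdf11 at 0.369 to Inhbb at 0.359 RPKM. In young controls (n = 9) Id3 at 9.88 ± 3.07 RPKM and Id1 at 6.64 ± 4.00 RPKM (mean ± SD) overlapped, as did Fst at 2.64 ± 0.512 RPKM and Acvr2b at 2.54 ± 0.419 RPKM. The ligand genes and Fstl3, between 0.34 and 0.496 RPKM in the same libraries, did not separate from their neighbours in this order beyond their spread. Id2, an inhibitor of bHLH transcription factors, had 1.82 ± 0.289 RPKM in young controls and lay above all 5 of them.

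**Figure D1:**
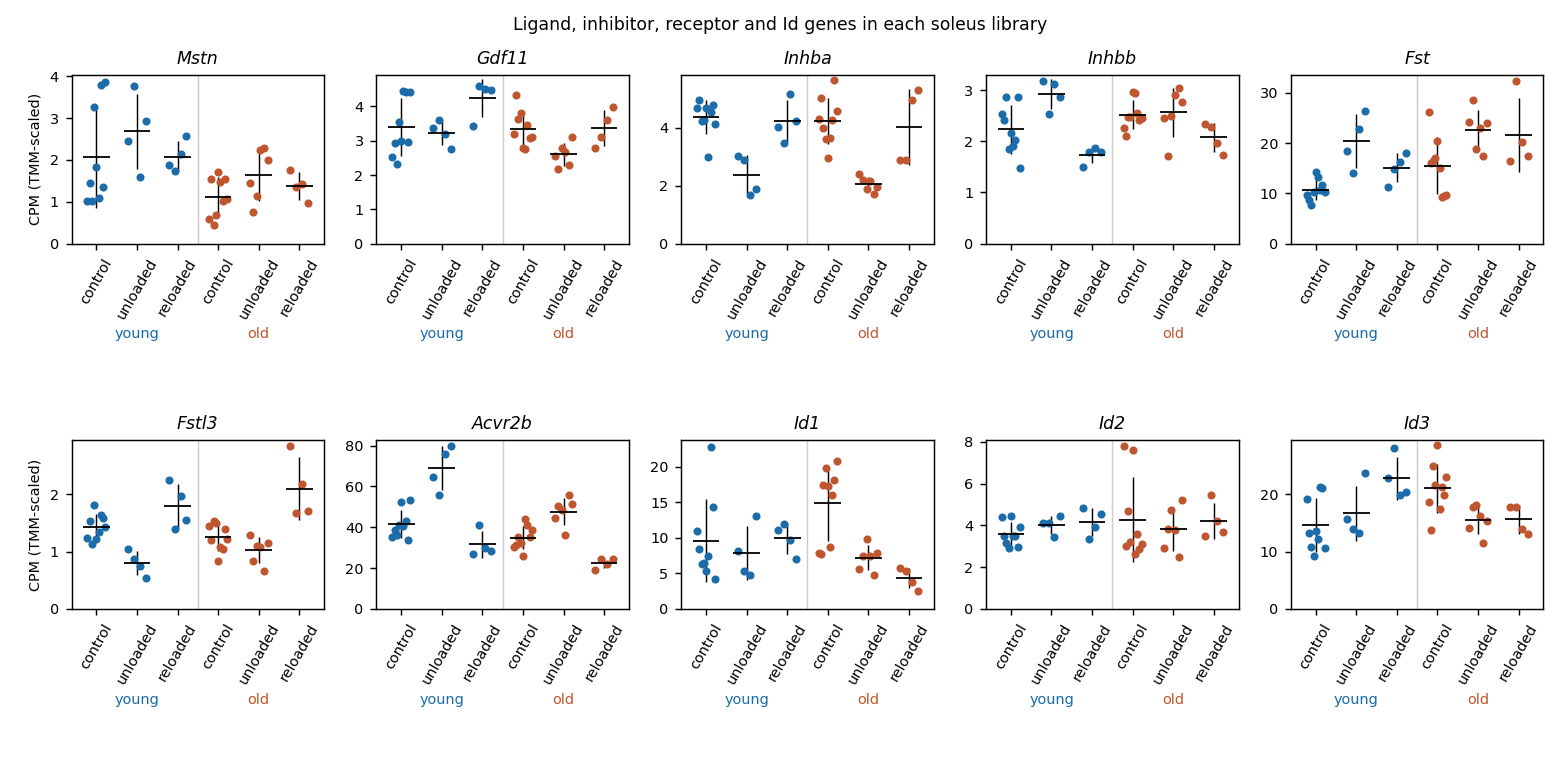
Levels of the 10 members in every library, in CPM on a linear axis, by age and load, with the group mean as a line and its SD as a bar (n = 9, 4, 4, 9, 6 and 4). Inhba falls in unloaded soleus and returns in reloaded soleus. Acvr2b rises in unloaded soleus and falls in reloaded soleus to a mean below control. Id1 spreads from 4.19 to 22.8 CPM within young controls.

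Load changed the ligand Inhba and the receptor Acvr2b in opposite directions at both ages: with unloading Inhba fell and Acvr2b rose, and with reloading Inhba rose and Acvr2b fell. Fst rose with unloading at both ages, and Fstl3 fell with unloading in young soleus and rose with reloading at both ages. Mstn itself passed the test in none of the 6 load comparisons. A gene was called where its adjusted p was under 0.05, from edgeR's quasi-likelihood F test with Benjamini-Hochberg adjustment over the 15031 genes. With unloading, 3 members rose and 2 fell in young soleus, where 40.8% of all tested genes were called (19.1% higher, 21.7% lower). In old soleus 2 members rose and 4 fell, where 42.7% of all genes were called (19.5% higher, 23.2% lower). From unloaded to reloaded soleus, 2 members rose and 2 fell in young mice, against 47.9% of all genes (26.4% higher, 21.5% lower). In old mice 2 rose and 1 fell, against 51.3% of all genes (27.8% higher, 23.5% lower). Reloaded against control soleus gave 1 risen and 2 fallen members in young mice, against 49.6% of all genes (26.8% higher, 22.9% lower), and 1 and 2 in old mice, against 42.9% (21.8% higher, 21.1% lower). The members' shares, 5 and 6 of 10 with unloading and 3 or 4 of 10 in the others, lay on both sides of the background, and nothing about the set is read from them. The median log2 change over the 10 members was 0.185 in young and -0.226 in old soleus with unloading, against 0.004 and -0.003 over all genes. Comparisons with the same control or unloaded libraries are not independent of each other, so their values stand side by side only.

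**Figure D2:**
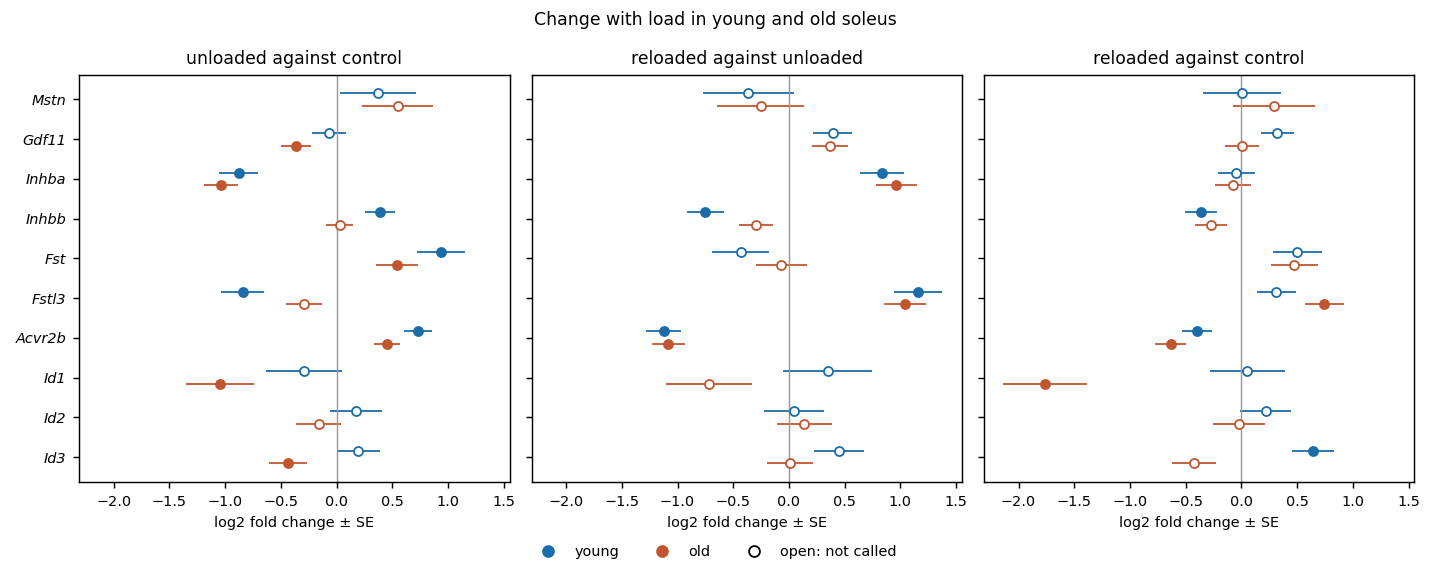
The log2 fold change of each member with its SE, from edgeR, for unloading against control, reloading against unloading and reloaded against control, in young (blue) and old (orange) soleus. Filled points passed an adjusted p of 0.05 and open points did not. Inhba and Acvr2b sit on opposite sides of 0 with unloading, and in reloaded against control soleus Id1 and Id3 lie lower in old than in young mice.

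Mstn (chromosome 1, 53061640 to 53068079, plus strand on mm10) encodes myostatin, the muscle-made ligand that restrains growth. In young controls it ran from 1.02 CPM through a median of 1.44 to 3.87 CPM, the 4 unloaded libraries had 2.46, 3.76, 1.6 and 2.92 CPM, and the 4 reloaded libraries had 1.87, 1.73, 2.14 and 2.58 CPM. In old soleus the controls ran from 0.441 through 1.07 to 1.72 CPM, the unloaded libraries from 0.764 through 1.71 to 2.29 CPM, and the reloaded libraries had 1.76, 1.35, 1.43 and 0.97 CPM. All of these ranges overlapped within each age, and 3 young controls, numbers 4, 7 and 9, lay above the other 6. The log2 change with unloading was 0.37 ± 0.34 (SE, adjusted p = 0.41) in young and 0.55 ± 0.32 (adjusted p = 0.17) in old mice, and 0.01 ± 0.35 and 0.29 ± 0.37 in reloaded against control soleus. Counts of 15 to 132 reads per library lay behind these values.

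Between ages, Mstn was the member that fell in controls, from a mean of 2.07 ± 1.21 CPM in young to 1.12 ± 0.477 CPM in old mice (SD, n = 9 each). The log2 change was -0.88 ± 0.29 (adjusted p = 0.0236) and the groups overlapped. The call rested on the 3 high young controls: without young control 4, 7 or 9 the adjusted p was 0.056, 0.0641 and 0.0688, and with controls 1 to 6 alone the change was -0.58 (adjusted p = 0.219). Among unloaded and reloaded libraries the age change in Mstn was -0.71 ± 0.37 and -0.59 ± 0.42, neither called.

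Gdf11 (chromosome 10, 128880524 to 128891718, minus strand) encodes a ligand closely related to myostatin. Young controls ran from 2.32 through 2.98 to 4.45 CPM, young unloaded libraries had 3.36, 3.61, 3.21 and 2.76 CPM, and young reloaded libraries had 3.43, 4.6, 4.5 and 4.47 CPM. Old controls ran from 2.75 through 3.19 to 4.33 CPM, old unloaded libraries from 2.19 through 2.61 to 3.11 CPM, and old reloaded libraries had 2.79, 3.1, 3.6 and 3.97 CPM. Old unloaded libraries lay low but overlapped their controls. Gdf11 fell with unloading in old soleus by 0.36 ± 0.13 on the log2 scale (adjusted p = 0.0263), a call lost without old control 2 (adjusted p = 0.0596), without old unloading 2 (0.07) or 5 (0.0632), and without TMM scaling (-0.28, 0.087). In young soleus the change was -0.07 ± 0.15, and the difference between ages, -0.30 ± 0.20, was not called (adjusted p = 0.657). No reloading comparison of Gdf11 was called, but some alternatives did call a rise. Reloaded against control young soleus gave 0.43 (adjusted p = 0.0235) with controls 1 to 6 alone and 0.36 (0.0412) without TMM scaling. Reloading after unloading in old soleus gave 0.36 (adjusted p = 0.0354) with only the groups compared.

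Inhba (chromosome 13, 16011851 to 16031609, plus strand) encodes the beta A subunit, 2 copies of which form activin A. Young controls ran from 2.99 through 4.56 to 4.97 CPM, unloading brought the libraries to 3.02, 2.87, 1.69 and 1.9 CPM, and reloading to 4.03, 3.46, 5.18 and 4.25 CPM. Old controls ran from 2.97 through 4.28 to 5.64 CPM, old unloaded libraries from 1.71 through 2.06 to 2.42 CPM, and old reloaded libraries had 2.87, 2.9, 4.97 and 5.32 CPM. Every old unloaded library lay below every old control and every old reloaded library, while in young mice only control 6, at 2.99 CPM, reached into the unloaded range. Inhba fell with unloading by 0.88 ± 0.18 on the log2 scale in young (adjusted p = 0.000132) and by 1.04 ± 0.15 in old soleus (adjusted p = 1.51e-06), so that young unloaded soleus held 0.544 of the control level. It rose on reloading by 0.83 ± 0.20 (adjusted p = 0.000843) and 0.96 ± 0.18 (adjusted p = 4.07e-05), without overlap at either age. Reloaded and control soleus then differed by -0.04 in young and -0.07 in old mice, and these 4 calls held in every alternative that kept the gene, which the filter at 5 CPM did not. In a bulk library, fewer cells that express a gene and less of its RNA per cell cannot be told apart, here and for every member.

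Inhbb (chromosome 1, 119415463 to 119422248, minus strand) encodes the beta B subunit of activin B. In young mice the controls ran from 1.47 through 2.17 to 2.86 CPM, the unloaded libraries had 3.18, 2.54, 3.12 and 2.86 CPM, and the reloaded libraries had 1.5, 1.79, 1.87 and 1.79 CPM. In old mice controls ran from 2.1 through 2.47 to 2.97 CPM, unloaded libraries from 1.71 through 2.64 to 3.05 CPM, and reloaded libraries had 2.34, 2.28, 1.97 and 1.73 CPM. The young reloaded libraries all lay below the young unloaded ones, and the other groups overlapped. Inhbb thus moved opposite to Inhba in young soleus: it rose with unloading by a log2 change of 0.39 ± 0.14 (adjusted p = 0.0233) and fell with reloading by 0.75 ± 0.17 (adjusted p = 0.000398). The rise was lost without young unloading 1 (0.35, adjusted p = 0.076) or 3 (0.36, 0.0715), whereas the fall held wherever the gene was kept. Reloaded against control young soleus gave -0.36 ± 0.15 (adjusted p = 0.0398), which was lost in 12 of 22 alternatives. It was -0.30 (adjusted p = 0.238) without the libraries with Alb, and the adjusted p was 0.125, 0.0522 and 0.0547 without young reloading 1, 2 or 4 and 0.0629, 0.0576, 0.0765 and 0.076 without young control 1, 2, 3 or 8. In old mice unloading gave 0.03 ± 0.12 and reloading -0.30 ± 0.15, and the differences between ages, -0.36 ± 0.19 and 0.45 ± 0.23, were not called (adjusted p = 0.527 and 0.314).

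Fst (chromosome 13, 114452262 to 114458951, minus strand, 3 annotated transcripts) encodes follistatin, which binds activins almost irreversibly and also binds myostatin. Young controls ran from 7.62 through 10.3 to 14.2 CPM, young unloaded libraries had 18.4, 14.1, 22.8 and 26.4 CPM, and young reloaded libraries had 11.2, 14.9, 16.3 and 18.1 CPM. The young unloaded libraries lay above the controls except for unloading 2, at 14.1 CPM beside control 5 at 14.2 CPM. The rise was 1.91-fold, a log2 change of 0.93 ± 0.21 (adjusted p = 0.000632), and held in every alternative. Reloading gave -0.43 ± 0.26 against unloading and 0.50 ± 0.22 against control (adjusted p = 0.169 and 0.0556). The change against control was called in some alternatives and not in others. It was 0.49 (adjusted p = 0.0133) with only the groups compared and 0.68 (0.0376) without the libraries with Alb.

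In old soleus Fst ran in controls from 9.23 through 16.1 to 26.2 CPM, in unloaded libraries from 17.5 through 23.5 to 28.5 CPM, and in reloaded libraries it had 16.5, 32.4, 20.2 and 17.5 CPM. The old controls fell apart by number: numbers 1 to 6 had 18.6 ± 4.15 CPM, from 15 to 26.2 CPM, and numbers 7 to 9 had 9.48 ± 0.227 CPM, while in young mice the same numbers had 10.6 and 10.8 CPM. Fst rose with unloading in old soleus by a log2 change of 0.54 ± 0.19 (adjusted p = 0.0195). This change was 0.29 (adjusted p = 0.222) against controls 1 to 6 alone and 0.47 (0.0598) without old unloading 2. Reloaded against control old soleus was not called, but it was in some alternatives. Among them were leaving out old control 1 (0.61, adjusted p = 0.0145) and the highest transcript in place of the sum (0.71, 0.0318). Old controls had more Fst than young controls, by 0.54 ± 0.18 (adjusted p = 0.0226), and this was lost without old control 1 (0.41, 0.0746) or 5 (0.48, 0.0529). The share of Fst reads on its main transcript was 57.9% ± 5.71 in young and 50.1% ± 10.7 in old controls, and with the highest transcript in place of the sum the age change was 0.35 (adjusted p = 0.276).

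Fstl3 (chromosome 10, 79777274 to 79782630, plus strand) encodes a follistatin relative that also blocks activins and myostatin. Young controls ran from 1.13 through 1.44 to 1.82 CPM, young unloaded libraries had 1.04, 0.866, 0.745 and 0.539 CPM, and young reloaded libraries had 2.25, 1.39, 1.98 and 1.55 CPM. Old controls ran from 0.834 through 1.23 to 1.53 CPM, old unloaded libraries from 0.667 through 1.09 to 1.3 CPM, and old reloaded libraries had 2.84, 1.67, 2.19 and 1.71 CPM. In young mice the unloaded libraries lay below all controls, and at both ages the reloaded libraries lay above all unloaded ones. Fstl3 fell with unloading to 0.557 of control in young soleus, by 0.84 ± 0.19 on the log2 scale (adjusted p = 0.000651), and in old soleus the change was -0.29 ± 0.16 (adjusted p = 0.147). The difference between these changes was 0.55 ± 0.25, not called (adjusted p = 0.472). On reloading it rose by 1.16 ± 0.22 in young (adjusted p = 4.76e-05) and 1.04 ± 0.19 in old soleus (adjusted p = 2.7e-05). Old reloaded soleus also stood above old control by 0.74 ± 0.17 (adjusted p = 0.000655), without overlap. Counts of 17 to 102 reads lay behind Fstl3, and its 4 calls held in every alternative that kept the gene.

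Acvr2b (chromosome 9, 119402178 to 119442148, plus strand, 2 annotated transcripts) encodes the activin receptor type IIB, the main type II receptor for myostatin. Young controls ran from 34.0 through 40.8 to 53.3 CPM, young unloaded libraries had 64.8, 55.7, 75.8 and 79.6 CPM, and young reloaded libraries had 26.9, 41.3, 29.9 and 28.4 CPM. Old controls ran from 25.7 through 35.2 to 44.1 CPM, old unloaded libraries from 36.1 through 49.3 to 55.7 CPM, and old reloaded libraries had 19.1, 24.5, 21.8 and 24.6 CPM. Every young unloaded library lay above every young control, and every reloaded library lay below every unloaded library of its age. With unloading Acvr2b rose 1.66-fold in young soleus, by a log2 change of 0.73 ± 0.13 (adjusted p = 2.42e-05), and in old soleus by 0.45 ± 0.12 (adjusted p = 0.00183). With reloading it fell by 1.12 ± 0.16 in young (adjusted p = 4.65e-07) and by 1.08 ± 0.15 in old soleus (adjusted p = 2.72e-07). The fall passed below control, by 0.63 ± 0.14 in old mice (adjusted p = 0.000355), where reloaded and control libraries did not overlap. In young mice it was 0.40 ± 0.14 lower than control (log2, adjusted p = 0.0155), a call lost without young reloading 1 (-0.34, 0.0672) or 4 (-0.36, 0.0524). Both transcripts carried about equal shares, 48.2% and 51.8% of the reads in young controls.

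Acvr2b also differed by age in unloaded and in reloaded soleus. Old soleus held less of it than young by 0.53 ± 0.14 (log2) among unloaded mice (adjusted p = 0.0132) and by 0.49 ± 0.16 among reloaded mice (adjusted p = 0.0272). In controls the change was -0.25 ± 0.10, not called (adjusted p = 0.0735). Some alternatives did call it, among them the highest transcript in place of the sum (-0.32, adjusted p = 0.0422) and leaving out old control 6 (-0.30, 0.0342). The unloaded difference was lost without young unloading 4 (-0.46, adjusted p = 0.0562). Old and young reloaded libraries did not overlap, yet that call was lost in 6 of 17 alternatives, among them leaving out young reloading 2 (-0.33, adjusted p = 0.17), old reloading 1 (0.0916) or 3 (0.061) and leaving out the libraries with Alb (-0.51, adjusted p = 0.155). The response to unloading differed between ages by -0.28 ± 0.18, not called (adjusted p = 0.628).

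Id1, Id2 and Id3 encode helix-loop-helix proteins that bind and silence bHLH transcription factors, and Id1 and Id3 are classic BMP-Smad targets that are strongly expressed in endothelium. Id1 (chromosome 2, 152736251 to 152737410, plus strand) ran in young controls from 4.19 through 7.5 to 22.8 CPM, was 8.19, 5.31, 4.76 and 13.1 CPM in young unloaded libraries, and was 11.1, 12.0, 9.76 and 6.99 CPM in young reloaded libraries. In old controls it ran from 7.67 through 17.3 to 20.8 CPM, in old unloaded libraries from 4.84 through 7.47 to 9.86 CPM, and in old reloaded libraries it was 5.77, 5.32, 3.82 and 2.59 CPM. The young groups overlapped throughout, whereas every old reloaded library lay below every old control and every young reloaded library. Id1 fell in old soleus with unloading by 1.04 ± 0.30 on the log2 scale (adjusted p = 0.00549) and stood 1.76 ± 0.37 below control after reloading (log2 change -1.76, adjusted p = 0.000247), both in every alternative. In young soleus the same changes were -0.29 ± 0.34 and 0.05 ± 0.34.

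The age difference in the change of Id1 from control to reloaded soleus was called, at -1.82 ± 0.49 on the log2 scale (adjusted p = 0.0298). It was lost without young reloading 2 (-1.71, adjusted p = 0.072), old reloading 3 (0.0548) or 4 (-1.63, 0.0732), with only the groups compared in the fit (0.0535), and without the libraries with Alb (-1.43, 0.325). For unloading the age difference was -0.75 ± 0.45 (adjusted p = 0.609). Old reloaded soleus held less Id1 than young reloaded soleus, by 1.18 ± 0.41 (log2, adjusted p = 0.0408), lost in 7 of 17 alternatives. The change was -0.80 (adjusted p = 0.486) without the libraries with Alb, and the adjusted p was 0.0686, 0.104 and 0.0657 without young reloading 1, 2 or 3 and 0.0507, 0.0911 and 0.132 without old reloading 2, 3 or 4. In controls the age change was 0.63 ± 0.26 (adjusted p = 0.0766), and without the single young control at 22.8 CPM, number 7, it was 0.90 (adjusted p = 0.00656).

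Id3 (chromosome 4, 136143822 to 136145392, plus strand) is the other of this pair. Young controls ran from 9.18 through 13.2 to 21.3 CPM, young unloaded libraries had 15.7, 14.0, 13.3 and 23.7 CPM, and young reloaded libraries had 22.8, 28.1, 19.8 and 20.3 CPM. Old controls ran from 13.7 through 21.3 to 28.5 CPM, old unloaded libraries from 11.5 through 15.8 to 18.1 CPM, and old reloaded libraries had 17.8, 17.8, 13.9 and 13 CPM. Reloaded libraries lay high in young and low in old mice, and the 2 sets did not overlap, while each overlapped its controls. The test of old against young reloaded soleus did not call Id3, though it did without TMM scaling (-0.62, adjusted p = 0.0436). Id3 was higher in old than in young controls by 0.53 ± 0.15 (log2, adjusted p = 0.0107), in every alternative. In young soleus it was higher after reloading than in controls by 0.64 ± 0.19 (adjusted p = 0.00471), or 0.45 (adjusted p = 0.16) without the libraries with Alb, and the corresponding change in old soleus was -0.43 ± 0.20 (adjusted p = 0.0775). The difference between those changes was -1.07 ± 0.27 (adjusted p = 0.0227), lost without young reloading 2 (-0.94, 0.0699), old reloading 4 (-0.99, 0.0586) or the libraries with Alb (-0.86, 0.283). Unloading in old mice gave -0.44 ± 0.17 (adjusted p = 0.0371), which was lost in 10 of 25 alternatives. It was -0.43 (adjusted p = 0.0652) without the libraries with Alb and -0.42 (0.0585) with controls 1 to 6 alone. The adjusted p was 0.0631, 0.0788 and 0.0553 without old control 3, 5 or 9 and 0.0707, 0.104 and 0.0586 without old unloading 1, 5 or 6.

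Id2 (chromosome 12, 25093799 to 25096092, minus strand) was called in none of the comparisons by edgeR. Its group means ran from 3.58 ± 0.57 CPM in young controls to 4.28 ± 2.03 CPM in old controls. The spread of the old controls came from numbers 1 and 5, at 7.82 and 7.59 CPM, against 2.63 to 4.71 CPM in the other 7. The changes with unloading were 0.17 ± 0.23 in young and -0.16 ± 0.20 in old mice (adjusted p = 0.583 and 0.556).

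Mean summed endothelial markers were lower in unloaded than in control soleus at both ages, with overlap in old mice. Id1 and Id3 were called lower with unloading in old mice, and neither was called in young mice. From unloaded to reloaded old soleus the mean marker sum went from 441 to 480 CPM. Id1 ran from 4.84 to 9.86 CPM in those unloaded libraries and from 2.59 to 5.77 CPM in the reloaded ones, a change not called. The 10 markers, none at 0 in all libraries of a group, summed to 454 to 635 CPM in old controls, 411 to 465 CPM in old unloaded and 453 to 517 CPM in old reloaded libraries, and to 592 to 653, 503 to 554 and 581 to 754 CPM in the same young groups. Their part in the Id1 and Id3 results was not tested. The 7 fibroblast markers, none at 0 in a whole group either, summed to 753 to 1490 CPM in young controls, 351 to 431 CPM in young unloaded and 1070 to 2000 CPM in young reloaded libraries. In the same old groups they summed to 225 to 458, 176 to 265 and 421 to 2030 CPM. Their part in the Inhba and Fstl3 results was not tested either. Old controls 1 and 5, the highest for Fst and Id2 together, held 477 and 624 CPM of the denervated-fibre markers, the highest sums of all old controls.

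**Figure D3:**
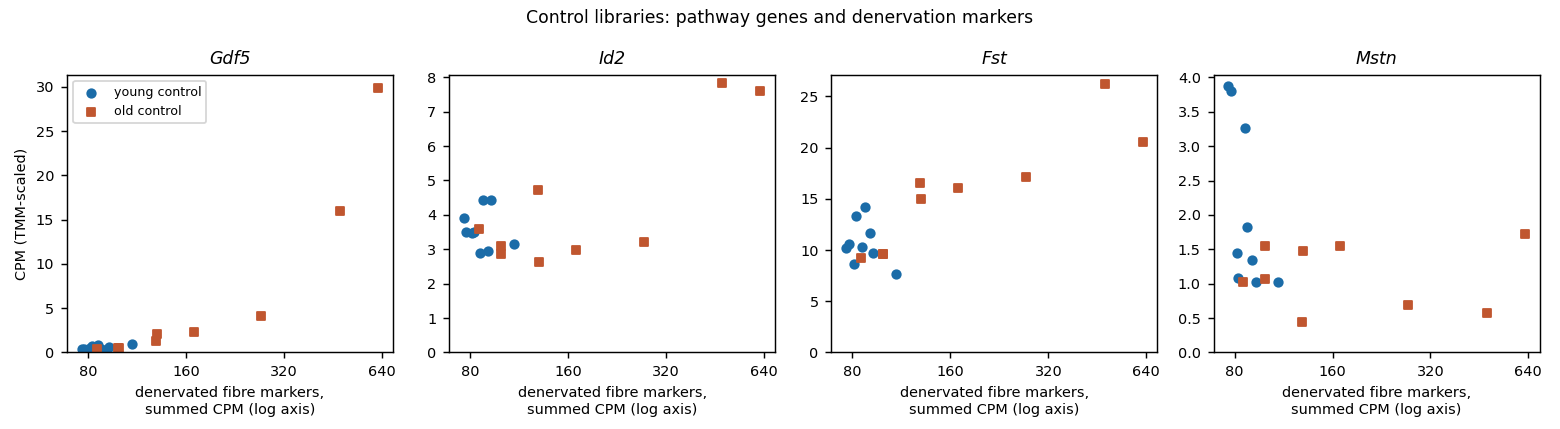
Levels of Gdf5, Id2, Fst and Mstn (CPM) in each control library against the summed CPM of 7 denervated-fibre markers on a log axis, for young and old mice (n = 9 each). Old controls 1 and 5, at 477 and 624 CPM of markers, hold the highest Gdf5 and Id2. Among old controls, Fst is lowest in the 3 below 100 CPM of markers.

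By age, 2 members rose and 1 fell in controls, where 23.7% of all genes were called (12.1% higher, 11.6% lower). The 3 were Mstn, Fst and Id3, and without young control 8 the count was 5. Among unloaded mice 1 member fell, against 9.81% of all genes (5.16% lower), and among reloaded mice 2 fell, against 19.7% (9.67% lower). The first count was 0 without young unloading 4, and the second was 0 without young reloading 2 or old reloading 3. For the age difference in the response to unloading, edgeR called 0 of the 10 members and 0% of all genes, with 2 members (Fstl3 and Id3) and 1487 genes at an unadjusted p under 0.05, and DESeq2 called 0 members and 8 genes. For the response to reloading after unloading 0 members were called by edgeR, against 0.778% of all genes, and 0 members by DESeq2. An unadjusted p below 0.05 was reached by 0 members there. For reloaded against control soleus 2 members, Id1 and Id3, fell in old relative to young mice, against 4.82% of all genes (2.49% lower), and 0 did without young reloading 2 or old reloading 4. In reloaded against control young soleus the 3 members called became 1 without young reloading 4 and 5 without young control 6.

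Each functional class of genes around these members held some that were called with load, and the class counts are descriptive only. Of 86 other genes of the pathways, 82 were tested, and Smad6, Smad7, Skil and Bambi stand in more than a single class. With unloading 13 rose and 17 fell in young soleus and 15 rose and 22 fell in old soleus. These were 36.6% and 45.1%, near the 40.8% and 42.7% of all genes. The list medians were -0.036 and -0.091 on the log2 scale.

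Among the 16 other receptors and co-receptors, 3 rose and 4 fell with unloading in young and 4 rose and 5 fell in old soleus. Over all genes 40.8% and 42.7% were called in these 2 comparisons. Acvr1b, the type I receptor that pairs with Acvr2b for activin and myostatin, rose with it: its mean went from 11.9 ± 1.57 to 24.4 ± 5.07 CPM in young and from 11.9 ± 1.84 to 22.3 ± 4.76 CPM in old soleus (n = 9, 4, 9 and 6). The log2 changes were 1.03 ± 0.13 (adjusted p = 1.38e-07) and 0.90 ± 0.12 (adjusted p = 1.98e-07), and on reloading -0.65 ± 0.16 and -0.90 ± 0.15. Tgfbr3, the co-receptor betaglycan that aids inhibin and TGF-beta2 binding, rose by 0.82 ± 0.07 and 0.70 ± 0.06, from group ranges of 56.5 to 68.0 CPM to 98.6 to 117 CPM in young mice without overlap. Eng, an endothelial co-receptor for BMP9, fell by 0.62 ± 0.14 and 0.66 ± 0.12 and rose on reloading by 0.74 ± 0.16 and 0.63 ± 0.15. Hfe2, the muscle-expressed BMP co-receptor hemojuvelin, was lower in reloaded than in control soleus, by 1.03 ± 0.11 (adjusted p = 1.14e-09) and 0.84 ± 0.11 (adjusted p = 9.41e-08). Acvr2a, the other activin type II receptor, was 0.18 ± 0.05 lower in old than in young controls (log2 change, adjusted p = 0.0115).

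Of 13 other ligands tested, 2 rose and 1 fell with unloading in young and 1 rose and 1 fell in old soleus. The share called over all genes was 40.8% in young and 42.7% in old soleus. Tgfb3 fell at both ages, by 0.66 ± 0.08 and 0.72 ± 0.07 on the log2 scale. Tgfb1 rose with reloading by 1.14 ± 0.20 and 0.75 ± 0.18 (adjusted p = 1.56e-05 and 0.000854), from 2.61 to 3.16 CPM unloaded to 4.47 to 10.6 CPM reloaded in young mice. Between ages 3 ligands rose and 2 fell in controls, where 12.1% of all genes were higher and 11.6% lower. Gdf5, a BMP ligand that is raised in denervated mouse muscle and opposes atrophy there, was the largest of these, with 0.331 to 0.991 CPM in young controls. The 9 old controls had 16, 2.31, 1.32, 4.17, 29.9, 2.06, 0.351, 0.527 and 0.492 CPM. Numbers 7 to 9 lay within the young range, and the 6 others lay above all young controls. The log2 change was 3.48 ± 0.68 (adjusted p = 0.000315), from 2.58 to 3.76 across alternatives, and the related Gdf6 rose by 2.41 ± 0.58 (adjusted p = 0.00254). The part of denervated fibres in these age changes was not tested.

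Of 15 other extracellular inhibitors tested, 3 fell with unloading in young soleus and 3 rose and 3 fell in old soleus. Unloading called 40.8% of all genes in young and 42.7% in old soleus. Fstl1 is a follistatin-domain protein whose role in activin binding is not established. It fell with unloading in young (log2 change -0.63, adjusted p = 0.00225) and in old soleus (-0.40, adjusted p = 0.0203). On reloading it rose by 1.15 ± 0.19 (adjusted p = 5.87e-06) and 1.40 ± 0.17 (adjusted p = 2.25e-08). Wfikkn2, which encodes the myostatin and GDF11 binding protein GASP-1, moved the other way on reloading. Its mean went from 9.72 ± 1.39 to 5.77 ± 1.97 CPM in young and from 10.6 ± 2.82 to 5.94 ± 1.72 CPM in old soleus. Against controls it was lower by 1.08 ± 0.18 (adjusted p = 8.31e-06) and 1.10 ± 0.18 (adjusted p = 7.94e-06). Of the 7 genes that process the propeptides, 4 rose and 0 fell on reloading in young and 3 rose and 0 fell in old soleus, where 26.4% and 27.8% of all genes were higher and 21.5% and 23.5% lower. Among them Bmp1, a protease that frees myostatin from its propeptide, rose by 0.53 and 0.70, and Tll1, a related protease, by 0.92 and 0.89. Bmp1 was 0.45 ± 0.08 lower in old than in young controls (adjusted p = 8.31e-05).

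Of 15 Smads and their regulators, 3 rose and 4 fell with unloading in young and 3 rose and 6 fell in old soleus. In the same comparisons 40.8% and 42.7% of all genes were called. Smad1, a BMP-activated Smad, rose by 0.58 ± 0.07 (adjusted p = 8.13e-08) and 0.47 ± 0.06 (adjusted p = 2.84e-07), from 12.1 to 15.4 CPM in young controls to 19.3 to 21.1 CPM unloaded. It stayed above control after reloading, by 0.59 and 0.39. Smad3, which carries activin and myostatin signals, was lower in reloaded than in control soleus by 0.88 ± 0.21 and 0.98 ± 0.22, and Smad4, the Smad shared by both branches, by 0.24 and 0.29. Smad6, an inhibitory Smad induced by BMP, fell with unloading in old soleus by 0.49 ± 0.16 (adjusted p = 0.0115). The other tested BMP targets were mixed there. Smad7 and Msx1 fell (log2 changes of -0.44 and -0.43), Bambi rose (0.37), and Id4, Atoh8 and Hey1 were not called.

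Among the 8 activin and TGF-beta target genes, 1 rose and 3 fell with unloading in young and 1 rose and 5 fell in old soleus. All genes gave 19.1% higher and 21.7% lower in young, and 19.5% and 23.2% in old soleus. On reloading 3 rose and 0 fell at each age, where 26.4% of all genes were higher in young and 27.8% in old soleus. Tgfbi was the target that rose with unloading, by 0.56 ± 0.14 in young (adjusted p = 0.00177) and 0.64 ± 0.13 in old soleus (adjusted p = 0.000103). Pmepa1, a TGF-beta-induced inhibitor of Smad signalling, fell with unloading by 0.72 ± 0.11 and 0.70 ± 0.09 and rose on reloading by 0.55 and 0.73. Ltbp2, a matrix protein of the latent TGF-beta binding family, fell by 1.80 ± 0.40 and 1.05 ± 0.34 and rose by 2.29 ± 0.45 and 3.24 ± 0.38. Its old reloaded libraries ran from 4.15 to 36.6 CPM, and the fibroblast markers ran from 421 to 2030 CPM in the same libraries. Of 7 other BMP targets tested, Id4, the remaining Id gene, rose on reloading in old soleus by 0.99 ± 0.23 (adjusted p = 0.000494).

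Of 6 atrophy genes linked to these pathways, 3 rose with unloading in young and 2 in old soleus, where 19.1% and 19.5% of all genes were higher. On reloading 4 fell and 1 rose in young and 5 fell and 1 rose in old soleus, where 21.5% and 23.5% of all genes were lower, and the gene that rose was Myog, a myogenic transcription factor. Fbxo32, the ubiquitin ligase atrogin-1, rose by 0.54 ± 0.15 and 0.50 ± 0.13 and fell by 2.20 ± 0.18 (adjusted p = 1.7e-11) and 2.11 ± 0.17 (adjusted p = 1.38e-11), from means of 912 and 924 CPM to 198 and 215 CPM. Trim63, the ubiquitin ligase MuRF1, had changes of -0.25 and 0.14 with unloading, not called, and fell on reloading by 1.53 and 1.57. Fbxo30, a ubiquitin ligase that BMP signalling restrains in denervated mouse muscle, had -0.13 and -0.08 with unloading, not called, and fell on reloading by 0.60 and 0.41. Acvr2b and Fbxo32 both rose with unloading and ended below control after reloading, at each age. For Acvr2b in young soleus, the call against control was lost without young reloading 1 or 4. A link between the 2 genes was not tested.

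**Figure D4:**
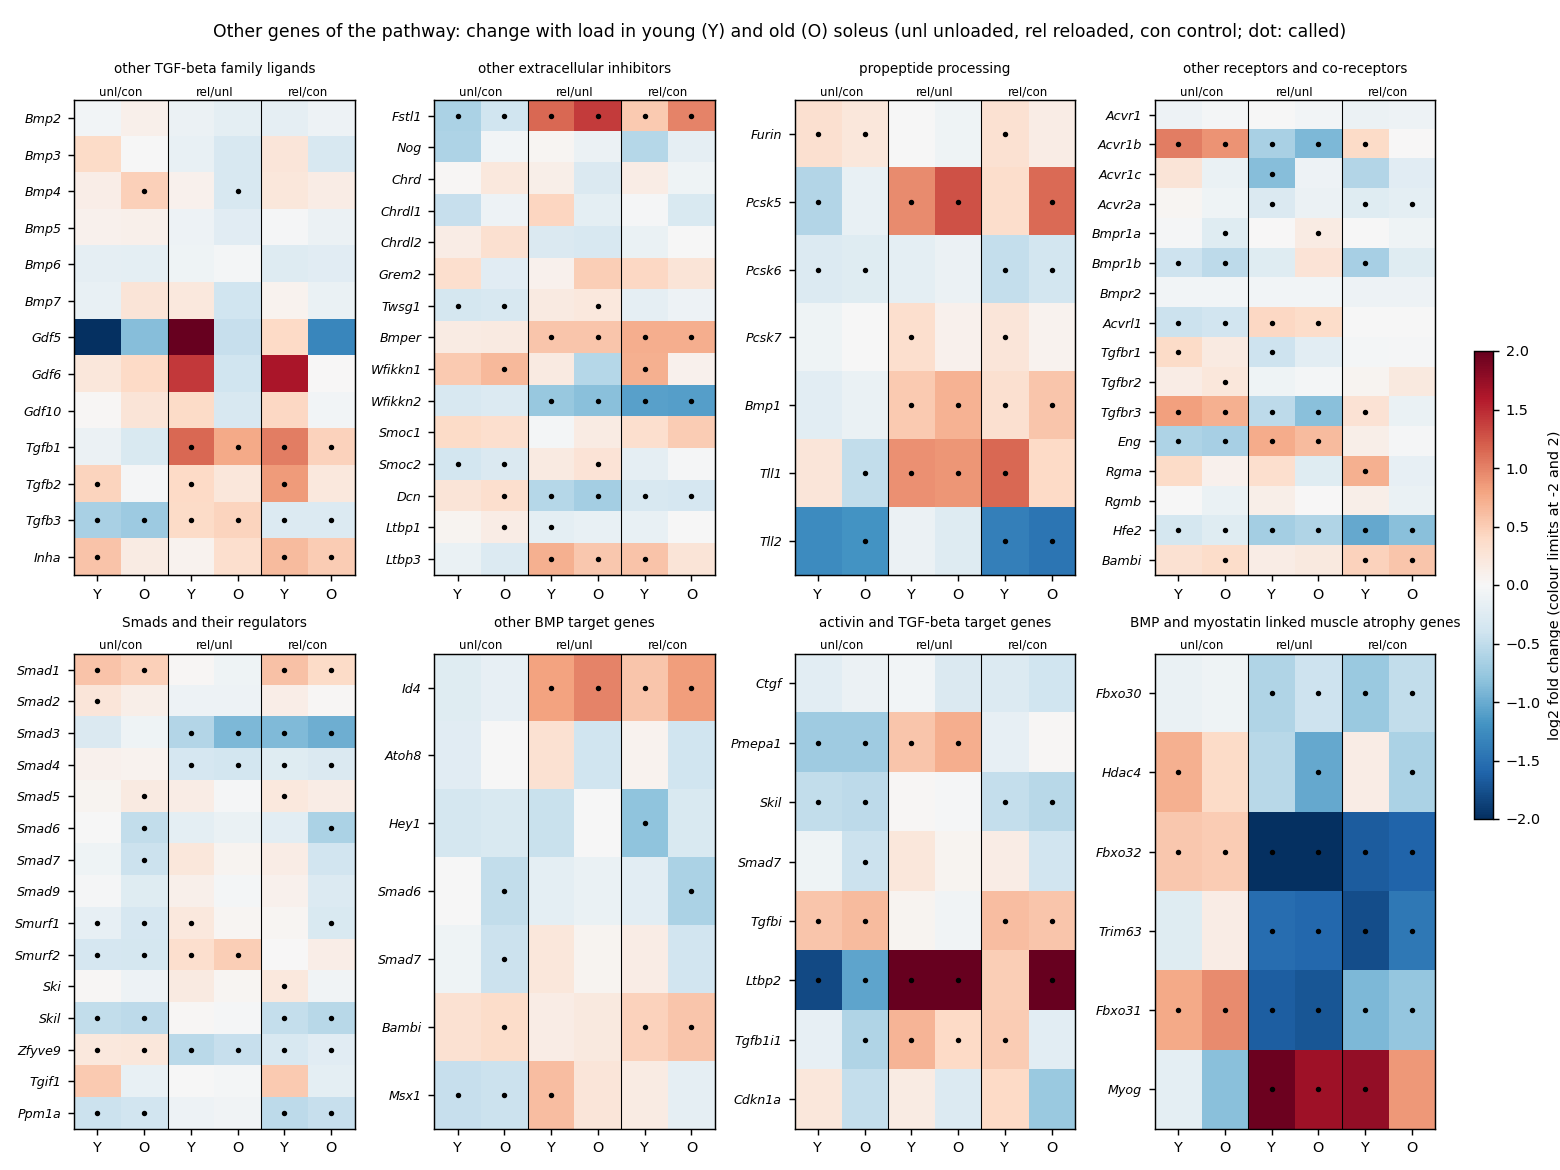
Log2 fold changes of the other genes of the pathways, by functional class, for the 3 load comparisons in young (Y) and old (O) soleus, on a colour scale limited to -2 and 2, with a dot where edgeR's adjusted p was under 0.05. Acvr1b and Tgfbr3 are raised with unloading at both ages, and Fbxo32 and Fbxo31 are raised with unloading and lowered on reloading.

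For each member, the genes whose pattern over the 6 group means was nearest were found as the smallest root mean square difference of centred log2 levels among 12534 genes. For Inhba these were Lrg1 (0.0483), Yipf7 (0.0586) and Agpat9 (0.0775), against a range of 1.06 in Inhba's own group means. For Acvr2b they were Them6 (0.102), Ccrl2 (0.103) and Otub2 (0.121), against a range of 1.61. For Fstl3 they were 2310057M21Rik (0.0799), Rab27b (0.0971) and St3gal5 (0.0992), and for Fst they were Apobec2 (0.0819), Pgap3 (0.0966) and Rbm3 (0.11). Mstn had Gjb2 (0.164), Gpd2 (0.167) and Spns2 (0.171), and Id1 had Zfp385a (0.235), Nckap5 (0.261) and Egln3 (0.28). The nearest gene was 4930503L19Rik for Gdf11 (0.0275, range 0.695), with Hoxc6 next (0.0281). It was Pkd2l2 for Inhbb (0.0348, range 0.731), Trim56 for Id2 (0.024, range 0.229) and Micall2 for Id3 (0.0939, range 0.691). A member with a small range can have small distances, so the distances do not rank members against each other. No other member was among the 3 nearest of any member.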

How the data were processed

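Soleus RNA, depleted of ribosomal RNA, was sequenced as single-end reads of 50 bases in 36 libraries, per the labels' protocols. The authors deposited estimated counts per transcript and RPKM values in a single table that holds all 36 libraries. TopHat2 2.0.1, Partek 6.6, DESeq and build mm10 are named in the submitters' processing notes, with no role or order, and the sources used here do not state whether counting used strand. Transcript counts were summed per symbol and rounded (31668 transcripts, 21156 genes), and of the summed values 94.94% were whole within 0.01 reads. Genes were filtered with filterByExpr, scaled by TMM and fitted with edgeR 4.0.16 (quasi-likelihood F test, 6 groups, all 36 libraries, Benjamini-Hochberg adjustment, R 4.3.3). DESeq2 1.42.0 was an alternative. SEs were the log2 change divided by the square root of F. Totals of 32.0 to 37.9 M reads limit the low members most. Scripts were tested on simulated data. No 2 libraries of a group agreed within sampling noise (lowest chi-square per degree of freedom 8.93 over 105 pairs). The members and gene lists were chosen with earlier results of these data known, and a listed gene is not reported here. Up to 4 called pathway genes per list and comparison were named by adjusted p and followed in the others, and nearest genes had a mean of at least 1 CPM. Alternatives were normalization, filters, transcript choice, a replicate block, the samples in the fit, controls 1 to 6 alone, libraries without Alb, and leaving out each library.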

Additional observations from a re-analysis of the deposited data

Results flagged for a closer look

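In 60 groups of member values, 2 had a library far from the others by Dixon's criterion, where chance gives about 1 in 20 groups. Gdf11 was lowest in young reloading 1, at 3.43 CPM, with the next library at 4.47 CPM. Inhba was lowest in young control 6, at 2.99 CPM, with the next at 4.13 CPM.

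The change from control to reloaded soleus differed between ages, by edgeR's test of the difference, for Id1 (log2 difference -1.82, adjusted p = 0.0298) and Id3 (-1.07, adjusted p = 0.0227). For Id3 every young reloaded library lay above the young control mean (by 8.19 CPM on average) and every old reloaded library below the old control mean (-5.37 CPM on average). Among the other pathway genes the same difference was called for Tgfb2 (-0.64, adjusted p = 0.0196), Tgfbr3 (-0.43, 0.0185), Smurf1 (-0.34, 0.0226), Tgfb1i1 (-0.72, 0.0308) and Ltbp2 (1.7, 0.036). Without young reloading 2 the call was lost for Tgfb2 (-0.56, adjusted p = 0.0666), Tgfbr3 (-0.36, 0.0693), Smurf1 (-0.25, 0.0889), Tgfb1i1 (-0.58, 0.113) and Ltbp2 (1.42, 0.0958). The value of Ltbp2 without old reloading 1 was 1.19 (adjusted p = 0.13).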

How the results depend on the processing

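Of 120 member values, 32 were called and 18 of these kept their call in every alternative that kept the gene. Of the 88 not called, 76 stayed so, and 0 called values changed sign. Of 208 calls of other pathway genes, 131 were kept.

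The number of members called moved under few settings. With genes at 5 CPM or more in at least 4 libraries, which leaves 5 members, it was 2 for unloading in young soleus and 1 for reloading after unloading at each age. With only the groups compared it was 5 for reloading after unloading in old soleus, 1 for old against young reloaded soleus and 1 for the age difference in reloaded against control. Without the libraries with Alb, which leaves 2 reloaded libraries per age, the last 2 were 0. With the highest transcript old against young reloaded gave 1, and with controls 1 to 6 reloaded against control in young soleus gave 5. Leaving out single libraries gave members called of 4 to 5, 4 to 6, 4 to 5, 3 to 4, 1 to 5 and 3 to 4 in the 6 load comparisons in the order reported, 2 to 5, 0 to 1 and 0 to 2 between ages, and 0 to 0, 0 to 0 and 0 to 2 for the age differences.

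Genes called in old against young unloaded soleus were 932 without the libraries with Alb, against 1474. In reloaded soleus they were 695 with only the groups compared and 793 without the libraries with Alb, against 2960. The age difference in unloading called 8 genes with DESeq2, 5 with only the groups compared and 59 with controls 1 to 6. In reloading after unloading it called 117, or 400 with DESeq2, 463 without TMM, 17 and 55. In reloaded against control it called 724, or 1207 with DESeq2, 367 and 141. Leaving out single libraries gave 5069 to 6095, 5897 to 6561, 6412 to 7258, 6912 to 7514, 6588 to 7470 and 5476 to 6506 genes for load, 3048 to 3726, 789 to 1510 and 1974 to 3223 for age, and 0 to 2, 47 to 258 and 288 to 1182 for the age differences. Some of these settings, but not DESeq2 or the fit without TMM, held fewer libraries. The cause of these moves was not tested.

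Same-numbered libraries of different groups had a median correlation of 0.00597 in their deviations from the group means (69 pairs, 15 over 0.1). For different numbers the median was -7.22e-06 (456 pairs, 91 over 0.1). A median near 0 cannot exclude a pairing or a batch shared by some numbers. With a replicate block 3 members were called for unloading in old soleus (Inhba, Acvr2b and Id1), 2 for reloaded against control in young soleus (Gdf11 and Id3; Acvr2b was at -0.27, adjusted p = 0.0994, and Inhbb at -0.33, 0.0806) and 3 genes for the age difference in unloading.

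Without TMM the median gene shifted by -0.113 (log2) for reloading in old soleus and by -0.125 for its age difference. The share of calls that were higher moved to 62.5% from 45.7% for unloading in old soleus, to 38.1% from 54.2% for reloading in old soleus, to 65.8% from 47.4% and 26.1% from 50.9% for age in unloaded and reloaded soleus, and to 9.07% from 63.2% and 16.6% from 48.2% for the last 2 age differences. Depth limits Mstn and Fstl3 most.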

Other observations

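Among the other pathway genes, Myog, the bHLH factor of muscle differentiation, and Cdkn1a, the cell-cycle inhibitor p21, were higher in old than in young controls, by log2 changes of 1.65 ± 0.41 (edgeR adjusted p = 0.00391) and 1.57 ± 0.31 (adjusted p = 0.000423). Myog ran from 3.06 to 38.3 CPM in old and from 2.39 to 6.46 CPM in young controls, so the groups overlapped. Its mean was 16.6 ± 13.4 CPM in old controls 1 to 6 and 3.61 CPM in old controls 7 to 9. Nog, the BMP antagonist noggin, was lower in old controls, by a log2 change of -0.68 (adjusted p = 0.0169).

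Markers of other cell types were also high in reloaded soleus. The summed proliferation markers ran from 22.3 to 81.4 CPM in young and from 9.27 to 35.5 CPM in old reloaded libraries, above all unloaded libraries of the same age (0.857 to 2.19 and 1.89 to 6.77 CPM). Macrophage markers ran from 139 to 329 CPM in young and from 209 to 356 CPM in old reloaded libraries, against 107 to 155 and 146 to 213 CPM unloaded. Their part in the members' changes on reloading was not tested.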
